A study of Homo sapiens with 4 samples.

Results

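Peptide-secreting cells store their products in dense-core secretory granules. Granins (chromogranins and secretogranins) are acidic proteins that aggregate with the cargo in the trans-Golgi network, and prohormone convertases and carboxypeptidase E then cut precursors such as pro-NPY into active peptides inside the maturing granule. Neuroblastoma arises from the sympathoadrenal lineage, whose cells release catecholamines from these granules together with neuropeptide Y and granin fragments, and chromogranin A is widely used as a tissue marker of neuroendocrine tumours.

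The 10 genes described here were 2 secreted peptide precursors (NPY and VGF), 5 granins (CHGA, CHGB, SCG2, SCG3 and SCG5), the prohormone convertases PCSK1 and PCSK2, and carboxypeptidase E (CPE). They were 10 of the 60671 genes in the count table. NPY and VGF were chosen from their measured values, since both had shown large increases in these same libraries, and the other 8 were added for their function. The differences below between the groups are therefore a description of the chosen genes and carry no test.

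RNA sequencing compared 2 libraries of SK-N-BE(2) cells with a control short hairpin RNA (shNC) and 2 libraries of the same cells with a hairpin against METTL14 (shMETTL14). SK-N-BE(2) is a widely used MYCN-amplified human neuroblastoma line, and METTL14 is the partner of METTL3 in the enzyme complex that writes N6-methyladenosine into RNA. Knockdown cells in the study were made with lentiviral vectors and puromycin selection, and both groups came from 1 cell line, so they model 1 tumour. The labels do not say which METTL14 hairpin the sequenced cells carried, nor whether the replicates were separate cultures, so p-values measure only the spread between these libraries, which may be technical.

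Each library had between 18925786 and 19886214 counts in genes. The mean chi-square per gene, which is near 1 when libraries differ by sampling noise alone, was 2.66 within shNC, 2.21 within shMETTL14 and between 30.5 and 31.5 across the groups. METTL14 itself had 753 and 754 counts in the shNC libraries and 303 and 321 in the shMETTL14 libraries, a fall to 41.7% of the control level (log2 fold change -1.26, SE 0.0832, edgeR adjusted p 3.6e-11). Each of 13 neuroblastoma markers was tested, and their summed level lay between 6550 and 6610 CPM (counts of a gene scaled to a common library size) in shNC and between 7120 and 7170 CPM in shMETTL14. Of 20 markers of fibroblast, Schwann, blood, epithelial and endothelial cells, 5 had at most 3 counts in any library. Among those 5, 1 (SOX10) had no count. The summed level of the 20 was 452 to 455 CPM in shNC and 423 to 431 CPM in shMETTL14, and the part of either marker sum in the differences below was not tested. In bulk RNA, fewer cells of a type and less RNA per cell cannot be told apart.

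For 8 of the 10 genes the RefSeq promoter table (GRCh38.p14) held a window from 250 bases before to 50 bases after a transcription start, and CHGB and SCG2 had none. The cAMP response element TGACGTCA, to which CREB-family factors bind, was found in the windows of VGF, CHGA and PCSK1. These stretches of 30 bases are shown because 3 genes with the same 8 letters differed in the direction of their change. They are written 5′ to 3′ on the strand of the gene, with the element in capitals:

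VGF, chr7:101165630-101165659, minus strand: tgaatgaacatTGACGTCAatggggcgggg

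CHGA, chr14:92923085-92923114, plus strand: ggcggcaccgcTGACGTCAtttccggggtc

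PCSK1, chr5:96433307-96433336, minus strand: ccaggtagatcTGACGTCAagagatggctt

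The element began 79 bases before the RefSeq start of VGF, 54 before that of CHGA and 77 before the first of the 2 starts of PCSK1. RefSeq and GENCODE place some starts differently, and the CHGA and PCSK1 elements lie within the genes as GENCODE annotates them, while that of VGF lies before the gene. Of all 35116 windows, 649 (1.85%) held TGACGTCA on either strand. Genes with the element were called in both directions: of the 439 that were tested, 33.7% were called higher and 23.7% lower after knockdown, beside 31.2% and 26.3% of the 11336 tested genes that had a window. The shorter core TGACG, which is part of the longer element, was present in 7 of the 8 genes with a window and in 24.6% of all windows.

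NPY was the exception among the 8, holding none of the motifs searched on both strands, which were the response element, its core, the 2 parts of the REST element described below and the TATA box TATAAA. Only exact matches were searched, so near variants of these motifs were not counted. GENCODE starts the gene at 24284163, so most of the stretch below lies within the gene as GENCODE annotates it. The 30 bases just before its RefSeq start are shown because NPY had the greatest increase of the 10 genes:

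NPY, chr7:24284160-24284189, plus strand: ataaaagccctgtcgcgacccgctctctgc

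SCG3 held the left part CAGCACC and, further on, the right part GGACAGC of the element bound by REST, a repressor of neuronal genes, on the gene's own strand just after the start. The 26 bases are shown with both parts in capitals, since none of the other genes with a window had the pair:

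SCG3, chr15:51681511-51681536, plus strand: ttCAGCACCcacagggcGGACAGCgc

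The left part was found in 7.75% of all windows and the right part in 6.03%. Both together on 1 strand, with starts 10 to 20 bases apart, occurred in 21 of 35116 windows (0.0598%), a spacing chosen after the SCG3 match had been seen. In SCG3 the parts began at bases 11 and 26 from the start. Pairs with closer starts were not counted, so 0.0598% is not the frequency of REST elements. Of the 13 tested genes with such a pair, SCG3 among them, 9 were called higher and 2 lower (69.2% and 15.4%). Of all tested genes with a window, 31.2% were called higher and 26.3% lower. Because the spacing was set on SCG3 itself, nothing is read from that count. A match of letters is not a bound site, and none of these matches was tested against binding data.

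NPY encodes neuropeptide Y, a sympathetic co-transmitter that acts on a family of G protein-coupled receptors. Its gene spans 24284163 to 24291865 on chromosome 7, plus strand, in GENCODE 29 (GRCh38), and its coding length is 291 bases. It had 37 and 33 counts in the shNC libraries and 268 and 300 in the shMETTL14 libraries. Both knockdown libraries were far above both controls, and no values overlapped. On the CPM scale, after TMM scaling, the level was 1.79 ± 0.0940 (SD, n = 2) in shNC and 14.6 ± 1.34 (SD, n = 2) in shMETTL14, or 8.18-fold higher, with a log2 fold change of 3.03 (SE 0.167). Among all 16309 genes tested, 0.147% exceeded that value.

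VGF encodes a granin-like precursor, inducible by nerve growth factor, that is cut into several bioactive peptides. Its gene spans 101162509 to 101165593 on chromosome 7, minus strand, and its coding length is 1845 bases. Counts were 907 and 824 in shNC and 3153 and 3288 in shMETTL14. The groups were well apart, and the 2 libraries of each group lay close together. The level was 44.3 ± 1.75 CPM (SD, n = 2) in shNC and 166 ± 6.94 CPM (SD, n = 2) in shMETTL14, 3.75-fold higher (log2 fold change 1.91, SE 0.0515), and 0.65% of tested genes exceeded it.

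**Figure D1:**
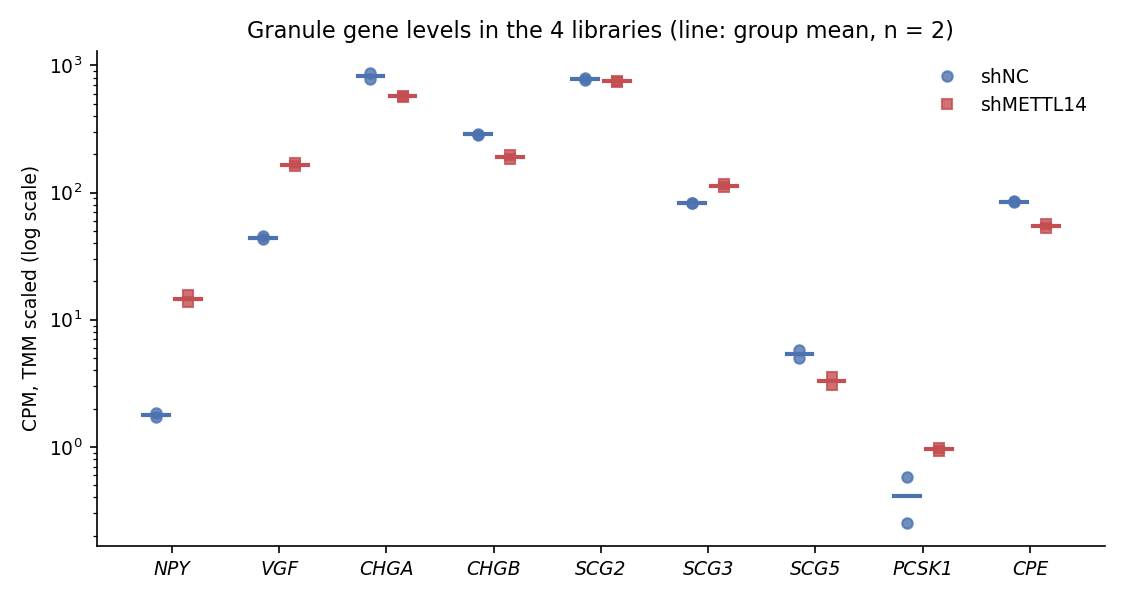
TMM-scaled CPM on a log axis of the 9 granule genes with counts, in each shNC library (circles) and shMETTL14 library (squares), with the mean of each group (n = 2) as a line; PCSK2 had no count and is left out. NPY and VGF stand higher in shMETTL14, CHGA, CHGB, SCG5 and CPE lower, and the shNC circles of PCSK1 lie far apart.

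The granins differed in direction. Chromogranin A (CHGA, plus strand of chromosome 14, 92923080 to 92935293), a granule-forming protein and the precursor of catestatin and vasostatin, had 17300 and 14968 counts in shNC and 11148 and 10976 in shMETTL14. Its libraries did not overlap, although the shNC libraries were spread more widely than the shMETTL14 libraries: 825 ± 61.0 CPM against 570 ± 0.672 CPM (SD, n = 2 each). The knockdown level was 69.1% of the control (log2 fold change -0.53, SE 0.043).

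Chromogranin B (CHGB, plus strand of chromosome 20, 5911430 to 5925361), its close relative in granule formation, had 5781 and 5431 counts in shNC and 3860 and 3553 in shMETTL14. Both knockdown libraries were below both controls. The means were 287 ± 4.54 and 191 ± 8.86 CPM (SD, n = 2 each), so that 66.6% of the control level was left (log2 fold change -0.59, SE 0.0422).

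Secretogranin II (SCG2, minus strand of chromosome 2, 223596940 to 223602503), the precursor of secretoneurin, had 15360 and 15333 counts in shNC and 14868 and 14341 in shMETTL14. The 4 libraries were nearly level. Its mean was 786 ± 21.3 CPM in shNC and 752 ± 10.04 CPM in shMETTL14 (SD, n = 2 each), with a log2 fold change of -0.06 (SE 0.0371). The value was -0.13 with upper quartile scaling, which moved the median of all tested genes to -0.0676.

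Secretogranin III (SCG3, plus strand of chromosome 15, 51681353 to 51721031), which links chromogranin A to the cholesterol-rich granule membrane and also binds CPE, went the other way. It had 1649 and 1575 counts in shNC and 2283 and 2115 in shMETTL14. Both knockdown libraries were higher than both controls, at 113 ± 4.74 against 82.5 ± 0.341 CPM (SD, n = 2 each), a 1.37-fold difference (log2 fold change 0.46, SE 0.0478).

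Secretogranin V (SCG5, plus strand of chromosome 15, 32641676 to 32697098) encodes 7B2, the chaperone that the convertase PCSK2 needs for its activation. It was sparse, with 116 and 95 counts in shNC and 69 and 59 in shMETTL14. The groups did not overlap, and 61.1% of the control level was left (5.39 ± 0.607 against 3.30 ± 0.324 CPM, SD, n = 2 each; log2 fold change -0.71, SE 0.192). An exon of SCG5 shares 11 bases with an antisense gene, the only exon overlap among the 10 genes.

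Of the 3 processing enzymes, CPE alone was well expressed. CPE (plus strand of chromosome 4, 165361194 to 165498320) trims the basic residues that convertases leave behind. Its counts were 1708 and 1607 in shNC and 1037 and 1085 in shMETTL14. Both knockdown libraries were lower, at 54.7 ± 2.41 CPM against 84.8 ± 1.25 CPM (SD, n = 2 each), or 64.5% of the control (log2 fold change -0.63, SE 0.0533).

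PCSK1 (minus strand of chromosome 5, 96390415 to 96434143), the convertase 1/3 that makes the first cuts in many prohormones, had only 5 and 11 counts in shNC and 18 and 19 in shMETTL14. Its knockdown libraries were higher than its controls, but the control libraries differed from each other by more than a factor of 2. The summed counts gave a ratio of 2.33, with an exact 95% interval from 1.26 to 4.48 that covers counting error only (log2 fold change 1.20, SE 0.498). Without shNC library 1 the log2 fold change was 0.72, and without shNC library 2 it was 1.90.

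PCSK2 (plus strand of chromosome 20, 17226107 to 17484578), the convertase that 7B2 serves, had 0 counts in each of the 4 libraries. A count of 0 allows up to 3 counts, or between 0.15 and 0.157 CPM in a library of this depth, so a lower level was not detectable.

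**Figure D2:**
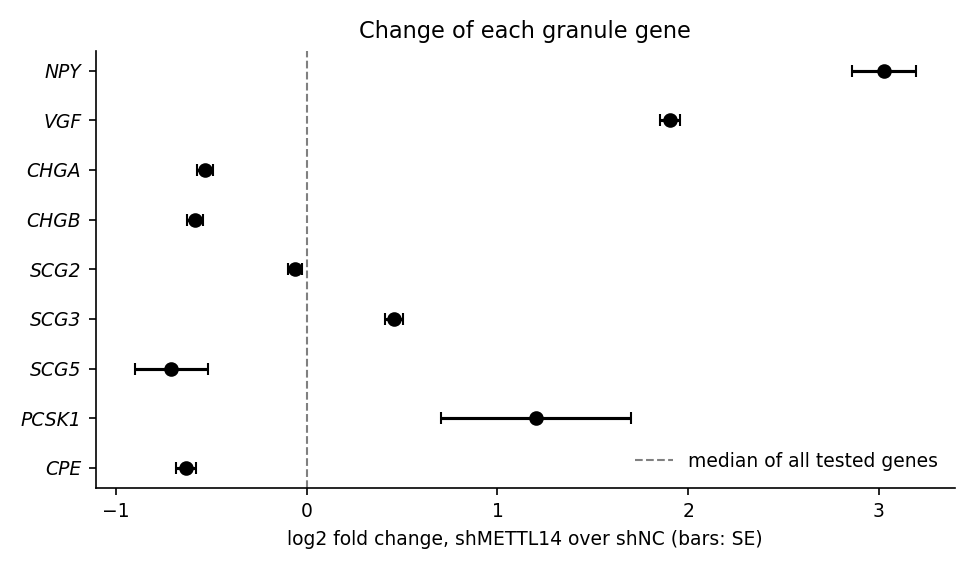
Log2 fold change of shMETTL14 over shNC from the edgeR fit over all genes, with the SE as a bar, for the 9 granule genes that were tested; the dashed line marks the median of all tested genes. NPY (3.03), VGF (1.91), PCSK1 (1.20) and SCG3 (0.46) lie to the right of it, SCG2 (-0.06) near it and the other 4 between -0.71 and -0.53.

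Of the 10 genes, 9 passed the filter on low counts. A gene was called at an edgeR adjusted p under 0.05 over all genes tested. Of the 9, 4 were among the genes called higher (NPY, VGF, SCG3 and PCSK1), beside 27.2% of all tested genes, and 4 among those called lower (CHGA, CHGB, SCG5 and CPE), beside 25.3% of all tested genes. In either direction 8 were called, beside 52.5% of all tested genes, and in all 9 the groups did not overlap, as for 75.5% of all tested genes. Since these genes were named from this comparison, nothing is read from those counts. The median log2 fold change of the 9 was -0.06, beside -0.000953 for all tested genes. With upper quartile scaling, 41.7% of all called genes were higher in place of 51.8%, and of the 9 genes 3 were called higher and 5 lower, SCG2 being called lower and PCSK1 not called. PCSK1 was also not called with library size scaling alone, with no filter on low counts, with DESeq2, or without shNC library 1 (log2 fold change 0.72), shMETTL14 library 1 (1.26) or shMETTL14 library 2 (1.16). SCG2 was also called lower with library size scaling alone and without shNC library 1 (-0.09).

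The make-up of the granule transcripts differed between the groups more than their sum did. The 10 genes held 0.219% and 0.211% of all gene counts in shNC and 0.185% and 0.182% in shMETTL14. Within that sum VGF took 2.12% and 2.07% in shNC and 8.59% and 9.2% in shMETTL14. NPY took 0.0863% and 0.0828% in shNC and 0.73% and 0.839% in shMETTL14. The largest loss of share was that of CHGA, from 40.4% and 37.5% to 30.4% and 30.7%, while SCG2 took 35.8% and 38.5% in shNC and 40.5% and 40.1% in shMETTL14.

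Ratios within a library do not depend on scaling between libraries. For every 1000 counts of CHGA there were 52.4 and 55.1 counts of VGF in shNC and 283 and 300 in shMETTL14. NPY had 2.14 and 2.21 counts per 1000 of CHGA in shNC and 24.0 and 27.3 in shMETTL14. CPE kept pace with CHGA, with 98.7 and 107 counts per 1000 in shNC and 93.0 and 98.9 in shMETTL14, ranges that overlapped.

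**Figure D3:**
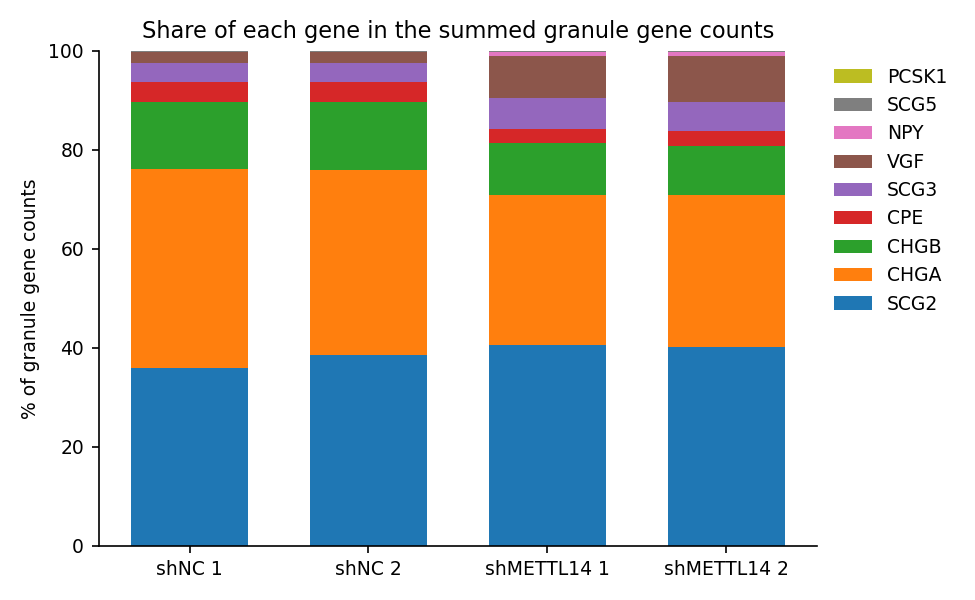
Share of each gene in the summed counts of the granule genes, in percent, for each of the 4 libraries as a stacked bar from 0 to 100. VGF widened from 2.12% and 2.07% to 8.59% and 9.2% of the sum, and CHGA narrowed from 40.4% and 37.5% to 30.4% and 30.7%.

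Levels can be compared between genes only per length. On the scale of CPM per kilobase of exon, the shNC order was SCG2 (289), CHGA (266), CHGB (63.3), CPE (28.7), SCG3 (24.9), VGF (16.4), SCG5 (2.46), NPY (1.94) and PCSK1 (0.0778). In shMETTL14 it was SCG2 (277), CHGA (184), VGF (61.4), CHGB (42.1), SCG3 (34.2), CPE (18.5), NPY (15.9), SCG5 (1.50) and PCSK1 (0.180). VGF moved from the sixth place to the third and NPY from the eighth to the seventh, passing SCG5, while CPE moved from the fourth to the sixth.

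In both groups no gene's 2 libraries overlapped those of its neighbour in the order, but some neighbours were close: SCG2 exceeded CHGA 1.09-fold in shNC, and CPE exceeded NPY 1.16-fold in shMETTL14. With the length of the longest coding transcript in place of the union of exons, CHGA ranked above SCG2 in shNC and CHGB above VGF in shMETTL14. Among 16156 tested genes with a length, 0.538% stood above SCG2 and 0.631% above CHGA in shNC. For NPY, 66.1% of these genes stood above it in shNC and 18.6% in shMETTL14, and for VGF 16.7% and 3.86%.

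**Figure D4:**
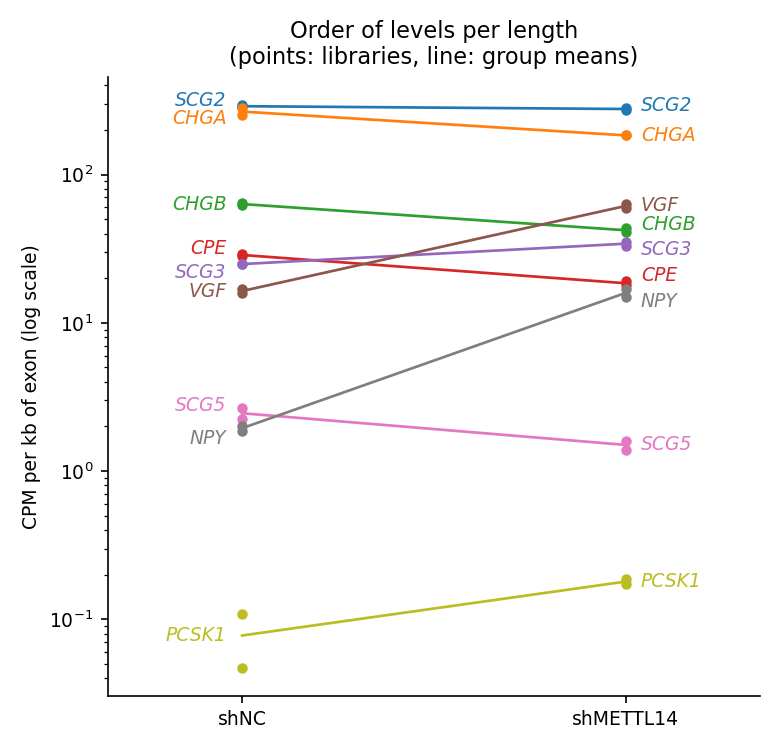
CPM per kilobase of exon on a log axis for 9 granule genes in shNC (left) and shMETTL14 (right), with a point for each library and a line joining the group means. The lines of VGF (16.4 to 61.4) and NPY (1.94 to 15.9) climb past those of other genes, and that of SCG2 stays on top (289 and 277).

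The genes whose pattern over the 4 libraries was most like that of NPY, by the Euclidean distance between centred log2(CPM + 0.5) values among genes whose mean log2 CPM was 2 or more, were BAALC (distance 0.232), SGK1 (0.243) and PLK2 (0.267). SGK1 is a serum- and glucocorticoid-regulated kinase and PLK2 a polo-like kinase. SGK1, for example, had 78 and 85 counts in shNC and 521 and 538 in shMETTL14. Those most like VGF were TNC (0.0908), an extracellular matrix glycoprotein, ITM2A (0.0997) and EFNB2 (0.113), the ligand ephrin-B2. TNC had 524 and 471 counts in shNC and 1957 and 1893 in shMETTL14. With 4 libraries in 2 groups, such a likeness says little more than that the size of the difference was similar.

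Other genes of the peptidergic pathway were taken from 6 lists by function, and each was tested in the same edgeR fit with adjustment over all genes. Of 50 other neuropeptide and hormone precursors, 15 passed the filter, 13 had no count at all, and 5 rose and 4 fell. The called share was 60% of those tested, beside 52.5% of all tested genes. The median log2 fold change was 0.10, but -0.15 when each library had to reach 10 counts and -0.22 with no filter on low counts. ADCYAP1, which encodes the neuropeptide PACAP, rose from 3 and 2 counts to 29 and 24, a ratio of 10.7 with an exact 95% counting interval from 4.30 to 34.2 (log2 fold change 3.35, edgeR adjusted p 3.3e-05). Exons of ADCYAP1 overlap those of 2 genes on the other strand, by 506 and 90 bases. VIP, a relative of ADCYAP1, had 3 and 5 counts in shNC and 17 and 19 in shMETTL14 (edgeR adjusted p 0.00277), and NPPC, the C-type natriuretic peptide precursor, 4 and 5 against 22 and 16 (edgeR adjusted p 0.00295). Both were sparse and lost their calls with 1 library left out: VIP without shNC library 1 (log2 fold change 1.80) or shMETTL14 library 2 (2.06), and NPPC without shMETTL14 library 1 (1.83), against 2.14 and 2.06 with every library.

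Galanin (GAL), the abundant precursor of the list, rose by less: 4679 and 4430 counts in shNC and 5849 and 6137 in shMETTL14 (1.32-fold, log2 fold change 0.41, SE 0.0416, edgeR adjusted p 3.8e-08). Adrenomedullin (ADM), a vasodilator peptide, fell from 424 and 399 counts to 97 and 91 (log2 fold change -2.12, SE 0.119, edgeR adjusted p 2.6e-12). Smaller decreases were those of NMU, the neuromedin U precursor (-0.32, edgeR adjusted p 0.00014), and ADM2, the intermedin precursor (-0.32, edgeR adjusted p 0.00494, not called by DESeq2). UCN, the urocortin precursor, had 14 and 15 counts in shNC and 3 and 7 in shMETTL14 (log2 fold change -1.50, edgeR adjusted p 0.0314). Its call was lost with any 1 library left out, with values of -1.58 and -1.42 without shNC libraries 1 and 2 and -1.01 and -2.22 without shMETTL14 libraries 1 and 2, and it overlaps exons of TRIM54 on the other strand.

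Of 18 further processing and amidation enzymes, 12 were tested, 7 rose and 4 fell (91.7% of those tested, beside 52.5% of all tested genes). Their median log2 fold change was 0.23, or 0.0035 with no filter on low counts. PCSK1N encodes proSAAS, a granin-like inhibitor of PCSK1, and rose from 629 and 646 counts to 880 and 992 (log2 fold change 0.56, SE 0.0754, edgeR adjusted p 1.8e-06). FURIN, the convertase of the constitutive pathway, rose from 410 and 390 to 504 and 547 (0.40, edgeR adjusted p 0.00045), and PAM, the enzyme that amidates peptides such as NPY at their C terminus, from 3169 and 3014 to 4000 and 3985 (0.38, edgeR adjusted p 8.1e-08). These rises were of modest size, between 1.3-fold and 1.48-fold. PCSK7, a widely expressed convertase, rose by 0.64 on the log2 scale (edgeR adjusted p 1.2e-08), with exons that overlap TAGLN on the other strand, and the lysosomal protease CTSB by 0.43 (edgeR adjusted p 1.7e-08).

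Among the enzymes that fell, CPD, a carboxypeptidase of the trans-Golgi network with the same specificity as CPE, went from 955 and 843 to 600 and 634 (-0.53, edgeR adjusted p 2.3e-06), close in size to the -0.63 of CPE. MBTPS1, the site-1 protease, fell by less (-0.23, edgeR adjusted p 0.00024). AEBP1, a carboxypeptidase-like protein (-0.21, edgeR adjusted p 0.0156), lost its call without shNC library 2 (-0.18) or without shMETTL14 library 1 (-0.22) or 2 (-0.19), and with DESeq2.

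Of the 8 receptors and cleaving enzymes of NPY, only 2 were expressed highly enough to test, and they went in opposite directions, so that the median of -1.04 is the midpoint of both (0.38 with no filter on low counts). NPY2R, an inhibitory presynaptic receptor, had 162 and 167 counts in shNC and 234 and 187 in shMETTL14. The shMETTL14 libraries were higher but uneven (log2 fold change 0.36, SE 0.132, edgeR adjusted p 0.0253), and the call was lost without shMETTL14 library 1 (0.21), without shNC library 1 (0.31), with upper quartile scaling (0.30) and with DESeq2 (0.36). XPNPEP2, an aminopeptidase that removes residues before a proline, fell from 128 and 129 counts to 23 and 24 (-2.44, SE 0.224, edgeR adjusted p 7.6e-09). NPY1R and NPY5R had 0 counts in the 4 libraries, as did NPY6R, and NPY4R, which has a near-identical copy in the genome that could take its reads, had 2 counts in 1 shNC library. DPP4, the peptidase that turns NPY into a Y2-preferring form, had 1 count in all.

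Granule biogenesis and membrane genes were mixed: of 28, 27 were tested, 9 rose, 7 fell and 11 were not called. The called share was 59.3%, beside 52.5% of all tested genes. Their median log2 fold change was 0.05, or -0.02 with upper quartile scaling. The vesicular monoamine transporters, which load granules with catecholamines, went in opposite directions. SLC18A1 rose from 206 and 166 counts to 325 and 329 (log2 fold change 0.82, SE 0.114, edgeR adjusted p 2.6e-06), and SLC18A2 fell from 287 and 261 to 64 and 62 (-2.11, SE 0.144, edgeR adjusted p 6.6e-11), although much of its exon sequence overlaps PDZD8 on the other strand. SLC18A2 had TGACGTCA in its promoter window. So did CLCN3 (-0.28, called lower) and the transcription factor gene CREM (0.15, not called). The precursor genes SST and CARTPT, which were not tested, held it too.

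Among the factors that act as granules bud, RAB2A (0.33, edgeR adjusted p 5.5e-06), RAB2B (0.33, edgeR adjusted p 0.00116) and EIPR1 (0.29, edgeR adjusted p 0.00108) rose. CCDC186 (-0.40, edgeR adjusted p 0.00086), a partner of RAB2, fell, and so did ICA1 (-0.71, edgeR adjusted p 4.2e-12) and the chloride/proton exchanger CLCN3 (-0.28, edgeR adjusted p 2.9e-05). The transmembrane granule proteins PTPRN and PTPRN2 were not called, with log2 fold changes of 0.05 (SE 0.0827) and -0.10 (SE 0.106).

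The docking and exocytosis genes split evenly. Of 38, 34 were tested, 13 rose, 13 fell and 8 were not called (76.5% called, beside 52.5% of all tested genes). The median log2 fold change was -0.06, but 0.11 when each library had to reach 10 counts. SYT9, a calcium sensor, had 206 and 186 counts in shNC and 787 and 704 in shMETTL14 (log2 fold change 1.94, SE 0.0932, edgeR adjusted p 2.1e-13). Its relatives SYT1 (-0.67, edgeR adjusted p 2.2e-11) and SYT7 (-1.20, edgeR adjusted p 0.00018) fell, from 3595 and 3392 to 2214 and 2148 counts and from 85 and 82 to 36 and 36. SYT4 rose slightly (0.17, edgeR adjusted p 0.00151).

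The small GTPases RAB27A and RAB27B, which tether granules at the plasma membrane, also parted: RAB27B rose from 522 and 473 counts to 998 and 982 (1.00, edgeR adjusted p 1.2e-10), and RAB27A fell from 509 and 453 to 347 and 347 (-0.46, edgeR adjusted p 0.00015, exons overlapping PIGB and PIGBOS1). Of the RAB27 effectors, MYRIP rose (0.94, edgeR adjusted p 8.8e-09), while SYTL4 fell from 68 and 76 counts to 18 and 5 (-2.63, edgeR adjusted p 3e-06, exons overlapping SRPX2) and SYTL2 from 20 and 20 to 10 and 3 (-1.60, edgeR adjusted p 0.0143). SYTL2 was not called by DESeq2, nor without shNC library 1 (-1.63), shNC library 2 (-1.56) or shMETTL14 library 2 (-0.99).

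Also lower were RPH3AL (-2.14, edgeR adjusted p 0.00079), a relative of rabphilin, and RAB26 (-1.67, edgeR adjusted p 0.00166), both with under 50 counts in any library. The fusion clamp CPLX1 (0.94, edgeR adjusted p 8.5e-09), the priming factor CADPS (0.53, edgeR adjusted p 3.8e-06) and the vesicle GTPase RAB3A (0.37, edgeR adjusted p 0.00375, not called by DESeq2) rose.

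Of 17 genes listed as transcription regulators of granule genes, 15 were tested, 2 rose, 10 fell and 3 were not called. The list included the REST corepressor RCOR1, and whether the listed factors have sites at granule genes was not tested. The called share was 80%, beside 52.5% of all tested genes (27.2% higher and 25.3% lower). The list median of the log2 fold change was -0.39, or -0.30 without shNC library 2 and -0.46 with upper quartile scaling. REST fell from 616 and 590 counts to 298 and 253 (-1.12, SE 0.0914, edgeR adjusted p 1.1e-09), with 23 bases of exon shared with NOA1 on the other strand. CREB1, a factor that binds TGACGTCA, fell from 1863 and 2018 to 1505 and 1439 (-0.39, SE 0.0549, edgeR adjusted p 3.4e-06). SP1, a factor for GC-rich promoters, fell from 8192 and 7687 to 3473 and 3434 (-1.19, edgeR adjusted p 5e-16) and the immediate early gene FOS from 8164 and 7844 to 4520 and 4457 (-0.82, edgeR adjusted p 1.4e-13).

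The LIM-homeodomain factor ISL1 rose (0.28, edgeR adjusted p 1.5e-05), as did the zinc finger gene ST18, from 4 and 0 counts to 25 and 20 (ratio 11.3, exact 95% counting interval 4.13 to 43.4, edgeR adjusted p 0.00022). The ST18 log2 fold change of 3.42 became 7.49 without shNC library 1, a value set by the prior count because the lone control then had 0 counts, and 2.50 without shNC library 2. INSM1, a factor of endocrine differentiation, had 5 and 1 counts in shNC and 0 and 1 in shMETTL14 and was not tested.

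**Figure D5:**
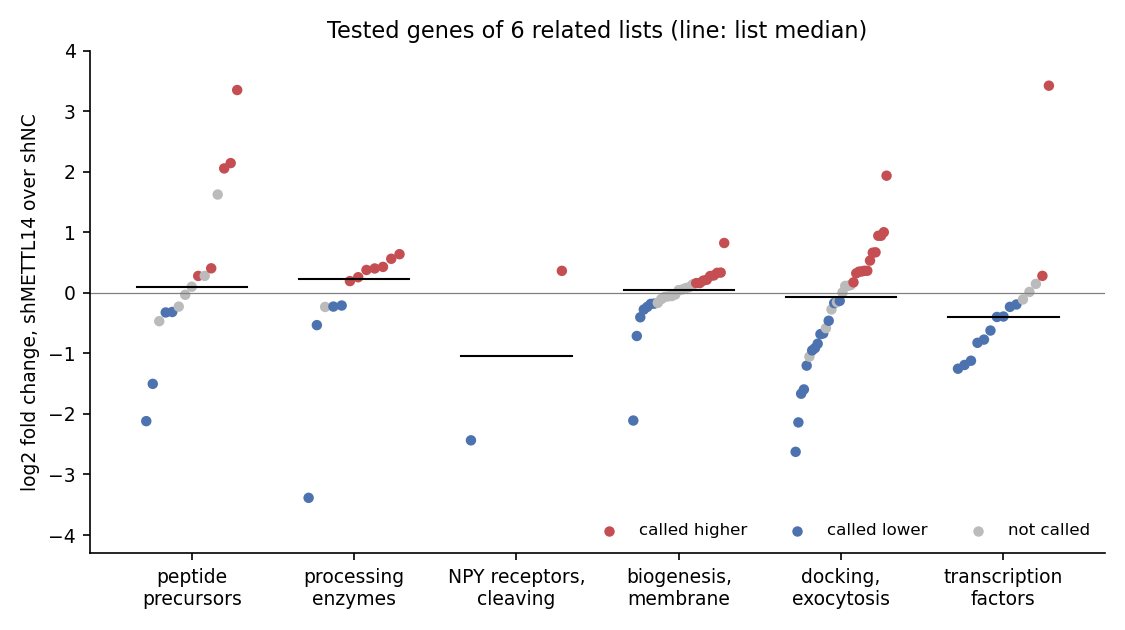
Log2 fold change of shMETTL14 over shNC for every tested gene of the 6 related lists, coloured by whether edgeR called it higher, lower or neither, with the list median as a black line. The exocytosis genes spread from -2.63 to 1.94, and the transcription factors lie mostly below 0, with a median of -0.39.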

How the data were processed

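The authors deposited raw counts of reads for each Ensembl gene in the 4 libraries, not normalized. According to the submitters' processing notes, HISAT2 2.1.0, StringTie 1.3.6, HTSeq 0.13.5 and edgeR were used with GRCh38/hg38. The strand setting and annotation release are not given in the sources used here, so reads of overlapping genes could be lost or credited to the partner. Exon overlaps of the list genes are named above for some genes only. The 5 lines that name no gene held 19.1% to 19.9% of counts and were left out.

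Samples were grouped by treatment label, 2 libraries per group. The deposited counts were tested in edgeR 4.0.16 (R 4.3.3) with the quasi-likelihood test after TMM scaling, filterByExpr defaults (minimum count 10, minimum total 15) and group as the only term, which left 16309 genes. Adjustment was by Benjamini-Hochberg over all of them. Fold changes are shMETTL14 over shNC. The biological coefficient of variation was 3.45%, and an exact two-sided permutation test of 2 against 2 libraries cannot go below 0.333. The procedure was tested on simulated data in which few genes changed and none of the changed genes was sparse. That simulation does not cover sparse genes or changes as widespread as those here. Alternatives were 3 other scalings, 2 other filters, DESeq2 1.42.0, a replicate block, leaving out each library and another gene length. Intervals of ratios are exact conditional binomial intervals.

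Of 60671 gene IDs, 60401 matched the table of gene names and 58453 GENCODE 29, from which lengths and positions were taken. The genes and lists were chosen with earlier results of these data known. Named from each list were up to 4 called genes with the largest increases, up to 4 with the largest decreases and genes that act directly on the 10, and some results that this rule would name are not reported here. Promoter windows came from RefSeq.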

Additional observations from a re-analysis of the deposited data

How the results depend on the processing

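The log2 fold changes of the 9 tested granule genes kept their sign in each alternative that could be fitted. Of 62 values in the 7 alternative fits, 58 stayed within the spread between replicates, and of 36 values with 1 library left out, 34 did. PCSK1 was not tested when at least 10 counts were required in every library, and the median of the granule genes was then -0.316 and the precursor list had 5 called genes. PCSK1 was among the called genes with RLE scaling, with the replicate block and without shNC replicate 2, and in no other alternative. SCG2 was called lower without shNC replicate 1 and under the upper quartile and library size scalings. With 1 library left out, the lone library of a group was assumed to vary like the other group. NPY ran from 2.94 to 3.12 and VGF from 1.84 to 1.95. METTL14 ran from -1.33 to -1.21. All genes called numbered 8561, between 7287 and 7458 with 1 library left out, 6022 with DESeq2 and 1433 when a change of at least 2-fold was also asked for. The NPY receptor list had 1 called gene with upper quartile scaling and with DESeq2, and 1 to 2 with 1 library left out. The other 105 list genes gave 721 values in the alternative fits, of which 29 lost and 7 gained a call, and 420 values with 1 library left out, of which 37 lost and 4 gained one.

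Libraries share replicate numbers across groups, but same-numbered libraries did not deviate together (Pearson correlation across genes 0.00483). With a replicate block, 8926 genes were called and METTL14 was at -1.26.

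With 2 libraries per group, values near 10 counts, as for PCSK1, UCN and SYTL2, cannot be ordered firmly. RAB26 ran from -2.38 to -1.18 and SYTL4 from -3.79 to -1.99 with 1 library left out. Which hairpin was used, and any protein level, was not analysed here.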
